A study of Mus musculus with 6 samples.

Results

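The genes followed here are 34 members of the autophagy machinery of the mouse, among the 14490 genes listed in an mRNA-seq experiment on NK cells. They were chosen by name, as genes with known roles in autophagy, and all 34 were measured. Splenic NK cells came from C57BL/6 mice of the genotypes Mettl3fl/fl (WT) and Ncr1Cre-Mettl3fl/fl (cKO), with 3 samples each, and the comparison asks which transcripts differ when the m6A methyltransferase METTL3 is deleted in NK cells. Both genotypes carried the floxed Mettl3 alleles and only the cKO cells carried the Cre, so an effect of the Cre itself and of the deletion cannot be told apart. The Cre is driven by Ncr1, which encodes the activating receptor NKp46, and therefore acts in cells that have begun to express NKp46. NK cells were purified by FACS. The mice were between 6 and 10 weeks old. The labels do not say whether samples came from separate animals, so p-values measure the spread between these samples.

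Autophagy is the route by which a cell encloses part of its own cytoplasm in a double membrane, the autophagosome, and delivers it to lysosomes for breakdown. The ULK kinase complex starts the process under the control of mTORC1 and AMPK, and a class III PI3-kinase complex then marks the membrane with a lipid. ATG9, ATG2 and WIPI proteins supply and position membrane, and conjugation systems attach ubiquitin-like ATG8 proteins (LC3 and GABARAP) to it. Receptors such as p62 bind both cargo and ATG8 proteins. In NK cells autophagy is known for its role in development and in the survival of memory cells.

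Per sample, 55965515 to 71464042 reads fell on listed genes. Levels are given as normalized counts, which are read counts divided by a size factor for each sample. The targeted gene Mettl3 had 1303, 1258 and 1192 normalized counts in the WT samples and 297, 299 and 405 in the cKO samples (log2 fold change −1.92, SE 0.0986, limma adjusted p = 2.32e-14). All 12 NK-cell markers were listed, 2 higher in cKO and 7 lower, with a summed level of 851466 to 888839 in WT and 807134 to 843967 in cKO. Those called lower included Ncr1 (log2 fold change −0.40), and those called higher were Tbx21 (0.23) and Il2rb (0.14). The study writes the cKO genotype as Ncr1Cre/+, with the Cre at Ncr1 itself. For Ncr1 an effect of that allele and a change of the cells cannot be told apart. Of the other cell types, 9 of 10 B-cell markers were listed and 6 of them were higher in cKO (summed level 1418 to 1449 in WT, 1939 to 2000 in cKO). Of 10 T-cell markers 8 were listed, 1 higher and 2 lower (15698 to 17085 in WT, 11770 to 12462 in cKO). Most of that sum and of its fall was Cd28 (mean 11867 in WT, 7910 in cKO). Cd3g (802 and 478) was also called lower and Lef1 (2503 and 2751) was called higher. The other CD3 genes, Cd3e (151 and 166) and Cd3d (710 and 660), were not called. Of 13 myeloid markers 8 were listed, 5 higher and 1 lower (59374 to 60493 in WT, 59304 to 61351 in cKO). Most of the sum was Itgam (mean 51065 and 51176), which encodes CD11b. The study used CD11b to stage NK cells, so this sum does not measure myeloid cells. Those called higher were Adgre1 (log2 fold change 0.25), Cd14 (0.46), Cd68 (0.20), Mpeg1 (0.15) and the very low Xcr1 (1.42). Lyz2 (−0.40) was called lower. None of 5 listed erythroid markers of 8 was called (811 to 870 in WT, 684 to 832 in cKO). The markers not listed included Vpreb3, Cd8b1, Themis, S100a8, S100a9, Siglech, Clec9a, Ly6g, Klf1 and Ahsp. The part of other cell types in the results that follow was not tested, and in bulk RNA fewer cells of a type and less RNA per cell cannot be told apart.

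Of the 34 autophagy genes, 18 (52.9%) passed an adjusted p of 0.05, 4 of them higher in cKO and 14 lower. Over all 14490 genes the same rule called 36.6%, with 17.8% of all genes higher and 18.8% lower. Among the 11817 genes with at least 1 CPM (counts per 1000000 on the listed genes) in at least 3 samples the share was 44.9%, with 21.6% higher and 23.2% lower. The genes that passed were Ulk1, Atg13, Becn1, Uvrag, Atg9a, Atg2a, Atg3, Atg12, Atg16l2, Atg4d, Gabarap, Gabarapl2, Sqstm1 and Bnip3l on the lower side and Atg101, Pik3r4, Map1lc3b and Tfeb on the higher side. The number called in each direction depended on the scaling, although none of the 18 changed sign. When the samples were instead brought to equal totals over the listed genes, 7 members were higher and 7 lower, beside 24.1% and 13.9% of all genes. The median over all genes moved from 0.0014 to 0.05, and that of the members from −0.11 to −0.06. The count of lower members was 9 without cKO replicate 3.

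**Figure D1:**
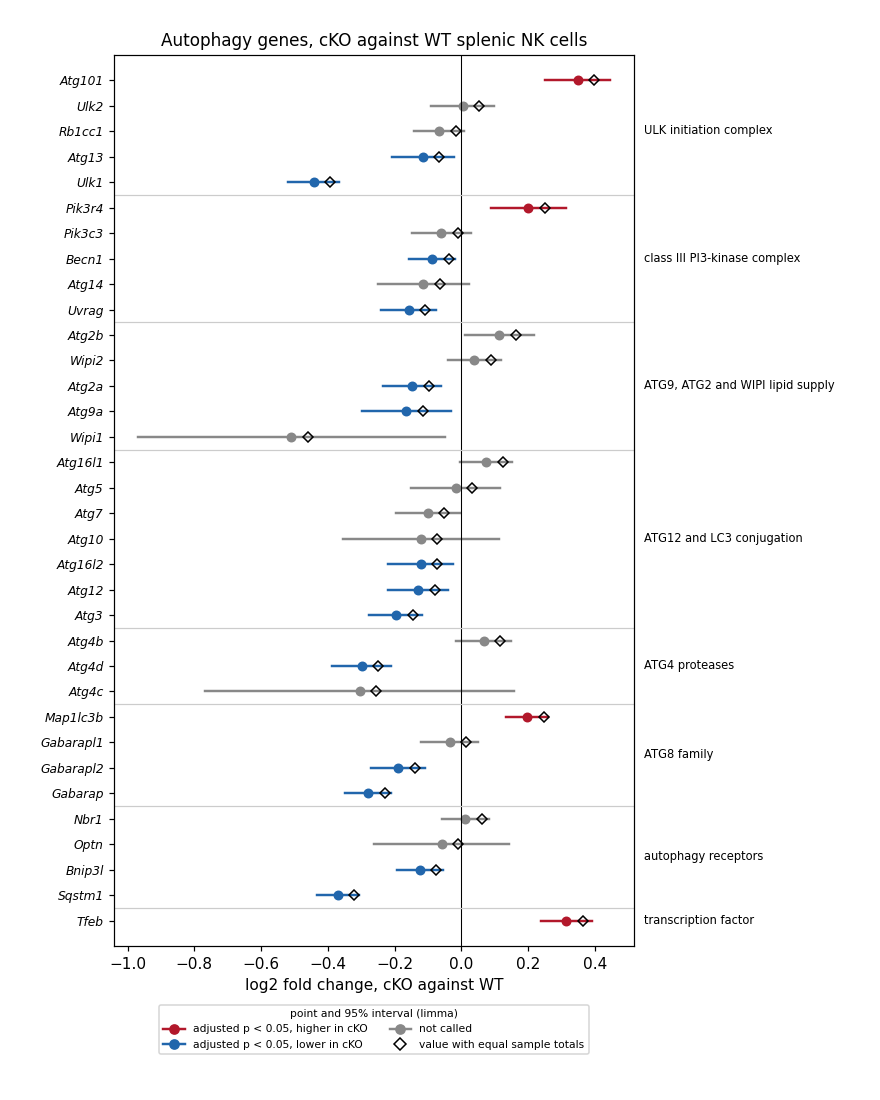
Log2 fold change (horizontal axis) of each of the 34 autophagy genes, grouped by role, as points with 95% confidence intervals from limma and coloured by the call. Open diamonds give the value after scaling samples to equal totals. 14 members lie below 0 in blue and 4 above 0 in red, and the diamonds sit to the right of the points.

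All the differences were modest. The members ranged from −0.51 to 0.35 on the log2 scale, with a median of −0.11. Of the 34, 24 were negative, beside 7209 of all 14490 genes. The median size of the members was 0.12, below the 0.17 of all genes, and their median level of 4242 normalized counts was above the 880 of all genes. Sizes were not compared with genes of similar level. None of the 34 passed the rule of the study, an unadjusted P under 0.05 and a log2 change of more than 1 in size. Of all genes 254 (1.75%) passed it. By limma 21 members had an unadjusted p under 0.05, beside 6402 of all 14490 genes. The 95% confidence interval lay within ±0.5 for 31 members and within ±1 for all 34. Of all 14490 genes it lay within ±0.5 for 8953 and within ±1 for 12342. The samples of the genotypes did not overlap for 18 members, 5 of them higher and 13 lower, against 45.7% of all genes (22.7% higher and 23% lower). By an exact permutation test over the 6 samples a single gene cannot go below p = 0.1 (two-sided). Each of these 18 members had that value, which any gene without overlap must have, so it adds nothing to the lack of overlap.

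**Figure D2:**
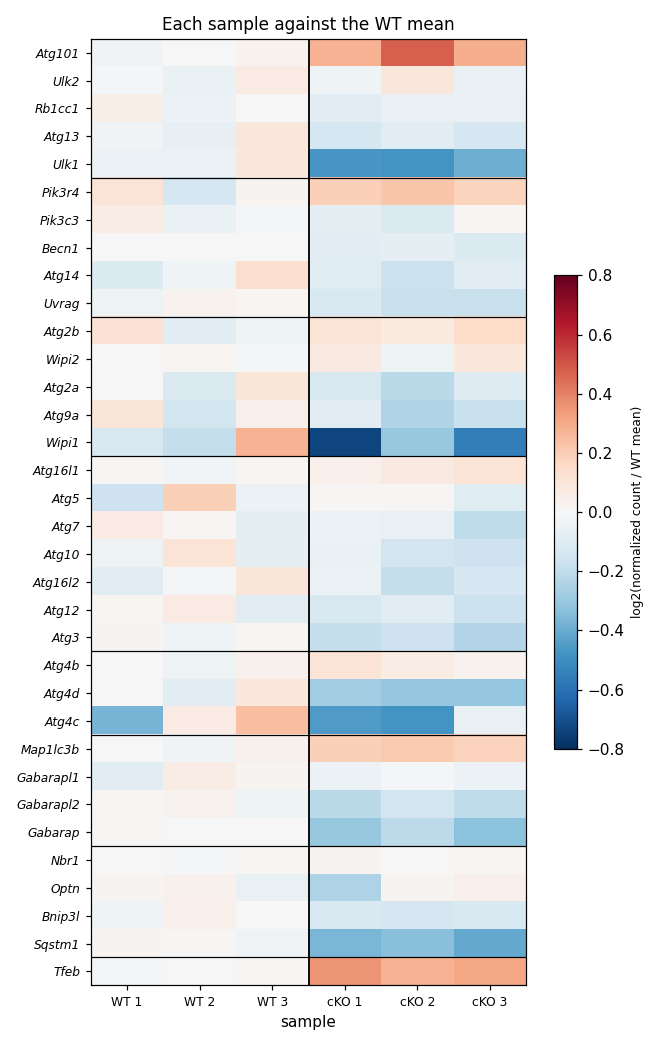
Each column is 1 sample, each line 1 autophagy gene, and the colour is the log2 ratio of its normalized count to the WT mean. Blue dominates the 3 cKO columns for Ulk1, Sqstm1 and Gabarap and red for Atg101 and Tfeb, while Wipi1 and Atg4c also vary among the WT columns.

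The ULK complex contained both the steepest called fall and the largest rise of the list. Ulk1 (chromosome 5, 110784488 to 110810097, minus strand, GRCm38), the kinase that starts autophagosome formation, had 12179, 12188 and 13405 normalized counts in the WT samples. In the cKO samples it had 9126, 9050 and 9589, so that every cKO sample was under every WT sample. The mean dropped by 26.4% (log2 fold change −0.44, SE 0.0378, limma adjusted p = 5.1e-10). Atg101 (chromosome 15, 101284272 to 101290945, plus strand), which encodes the HORMA-domain partner that stabilizes ATG13 in the complex, moved the other way. It had 3224, 3287 and 3352 normalized counts in WT and 3989, 4571 and 4020 in cKO, without overlap. The mean was 27.3% higher (log2 fold change 0.35, SE 0.0472, adjusted p = 1.48e-06).

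The remaining ULK subunits differed less. Atg13, which encodes the regulatory subunit, was called lower at 3508 ± 202 normalized counts in WT and 3233 ± 66.6 in cKO (SD, n = 3 each; log2 fold change −0.12, limma adjusted p = 0.0454). The call was lost with equal totals (−0.07, adjusted p = 0.264). It was also lost without WT replicate 1 (−0.13, adjusted p = 0.0502), WT replicate 3 (−0.07, 0.286), cKO replicate 1 (−0.11, 0.139) or cKO replicate 3 (−0.11, 0.109). Rb1cc1, which encodes the scaffold FIP200, had 6133 ± 198 and 5853 ± 76.9 and was not called (−0.07, 95% interval −0.14 to 0.01, adjusted p = 0.165). Ulk2, the paralogue of Ulk1, had 3432 ± 143 in WT and 3443 ± 187 in cKO, and the interval of its log2 fold change ran from −0.09 to 0.10.

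In the class III PI3-kinase complex, 1 gene was higher and 2 lower. Pik3r4 encodes the VPS15 subunit that anchors the kinase, and it had 2246, 1893 and 2120 normalized counts in WT and 2383, 2436 and 2356 in cKO. The lowest WT sample, replicate 2, stood apart from the others, and the rise (log2 fold change 0.20, SE 0.0547, limma adjusted p = 0.00486) was not called without it (0.13, adjusted p = 0.0559). Uvrag, which defines the complex acting in autophagosome maturation and endosomal transport, had 4411, 4635 and 4585 in WT and 4172, 4022 and 4020 in cKO (−0.16, SE 0.0396, adjusted p = 0.00236). Becn1, the scaffold Beclin 1, showed a small fall from 8401 ± 23.8 to 7905 ± 92.1 (−0.09, adjusted p = 0.0396). Its samples did not overlap, but the call was lost with equal totals (−0.04, adjusted p = 0.369) and without any 1 of the 6 samples, where the adjusted p ranged from 0.0524 without cKO replicate 2 to 0.127 without cKO replicate 3. Pik3c3, the catalytic subunit VPS34, had 4161 ± 164 and 3991 ± 180 and a log2 fold change of −0.06 (95% interval −0.15 to 0.03). Atg14, which directs the complex to the site of autophagosome formation, had 1257 ± 111 and 1159 ± 36.5 (−0.11, interval −0.25 to 0.02). Neither of these was called.

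Among the 5 genes for lipid and membrane supply, Atg9a and Atg2a were called lower. ATG9A is a lipid scramblase on vesicles that seed the membrane, and its transcript had 1594, 1348 and 1534 normalized counts in WT and 1403, 1264 and 1318 in cKO (log2 fold change −0.17, limma adjusted p = 0.0466). ATG2A transfers lipids into the growing membrane, and Atg2a had 9987, 9193 and 10659 in WT and 9087, 8548 and 9274 in cKO (−0.15, adjusted p = 0.00761). The samples overlapped for both genes. The call on Atg9a was lost with equal totals (−0.12, adjusted p = 0.178) and without WT replicate 1 (0.226), WT replicate 3 (0.135), cKO replicate 2 (0.171) or cKO replicate 3 (0.0953). That on Atg2a was lost with equal totals (−0.10, adjusted p = 0.0943), without WT replicate 3 (0.0855) and when cKO replicate 2 was left out (0.0559).

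The paralogue Atg2b did not follow Atg2a, with 2545 ± 192 normalized counts in WT and 2750 ± 64.7 in cKO (log2 fold change 0.11, limma adjusted p = 0.0818). It was called higher with equal totals (0.16, adjusted p = 0.0142) and without WT replicate 1 (0.17, adjusted p = 0.00965). The WIPI proteins read the lipid mark on the membrane. Wipi2 was at 6128 ± 72.8 and 6301 ± 300 (0.04, 95% interval −0.04 to 0.12), whereas Wipi1 was the least expressed member at 94.3, 90.4 and 125 in WT and 62, 83.6 and 70.4 in cKO. For Wipi1 the difference of −0.51 had an interval from −0.97 to −0.05 and an adjusted p of 0.0774, so that at this depth it was not called although the samples did not overlap.

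The conjugation systems had 3 of 7 genes called, all lower. Atg3, the E2-like enzyme that passes LC3 to its lipid, had 5079, 4896 and 5062 normalized counts in WT and 4391, 4475 and 4261 in cKO. All cKO samples were under all WT samples (log2 fold change −0.20, SE 0.0387, limma adjusted p = 0.000212). Atg12, the ubiquitin-like protein joined to ATG5, was at 4181 ± 221 in WT and 3820 ± 106 in cKO (−0.13, adjusted p = 0.0209). Atg16l2, a paralogue of the Atg16l1 scaffold, was at 4028 ± 259 and 3699 ± 188 (−0.12, adjusted p = 0.0442), with overlapping samples. With equal totals both calls were lost (Atg12 −0.08, adjusted p = 0.142; Atg16l2 −0.07, adjusted p = 0.264). Atg12 was also not called without WT replicate 1 (adjusted p = 0.0627), WT replicate 2 (0.122), cKO replicate 1 (0.0602) or cKO replicate 3 (0.0899). Atg16l2 was not called without WT replicate 2 (0.0583), WT replicate 3 (0.278), cKO replicate 2 (0.191) or cKO replicate 3 (0.0969).

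The other conjugation genes did not pass. Atg16l1, which positions the conjugation on the membrane, had 5088, 4985 and 5124 normalized counts in WT and 5221, 5318 and 5461 in cKO (log2 fold change 0.07, limma adjusted p = 0.127), with every cKO sample above every WT sample. It was called higher with equal totals (0.12, adjusted p = 0.01). Atg7, the shared E1-like enzyme, had 4075 ± 198 and 3801 ± 222 (−0.10, adjusted p = 0.0922) and was called lower without WT replicate 3 (−0.14, adjusted p = 0.0321). Atg5, the acceptor of ATG12, had 1824, 2339 and 1983 in WT and 2066, 2065 and 1913 in cKO, a spread in WT that covered all cKO values (−0.02, 95% interval −0.15 to 0.12). Atg10, the E2-like enzyme for ATG12, was at 330 ± 23 and 303 ± 12.8 (−0.12, interval −0.36 to 0.11).

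Transcription factors of the TFEB family bind E-boxes in promoters of autophagy and lysosome genes, and Tfeb was itself among the genes that rose, so the promoters of the members were read for the E-box CACGTG (its own reverse complement, so both strands are covered). The windows came from RefSeq (GRCm38.p6) and ran from 250 bases before to 50 after each start site, and 28 of the 34 members had one. Pik3c3, Atg16l1, Becn1, Atg12, Rb1cc1 and Bnip3l had none in the table. The E-box occurred in 4 of the 28 members (14.3%), against 11.5% of listed genes and 8.09% of all genes with a promoter. The longer TCACGTGA, the core of the CLEAR element, which contains the E-box, occurred in 1 (3.57%), against 2.24% and 1.12%. The members with an E-box were Atg3, Atg5, Atg7 and Atg14. They are shown 5′ to 3′ on the strand of the gene with the E-box in capitals, because they are the matches among the members, and a match describes letters, not binding. Counted from the start site of their window, the E-boxes start at −94 and −71 in Atg3, −14 in Atg5, −132 in Atg7 and −1 in Atg14. The one at −71 in Atg3 is flanked by the bases of the CLEAR core. Those of Atg7 and Atg14 lie inside the genes as annotated in GENCODE. There Atg7 begins at 114643097 on the plus strand and Atg14 at 47570649 on the minus strand, so these windows belong to other start sites.
Atg3, chr16:45158725-45158750, plus strand: ctccttttgtCACGTGtcctgggaga
Atg3, chr16:45158748-45158773, plus strand: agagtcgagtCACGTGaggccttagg
Atg5, chr10:44268315-44268340, plus strand: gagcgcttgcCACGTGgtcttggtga
Atg7, chr6:114670954-114670979, plus strand: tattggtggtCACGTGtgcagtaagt
Atg14, chr14:47568420-47568445, minus strand: aacaaaatccCACGTGactggccctg
Of these 4 genes Atg3 was called lower and the others were not called. No E-box lay in the windows of the 4 members called higher, and 11.5% of listed genes had an E-box there. Whether TFEB acts on any of these genes was not tested.

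ATG4 proteases trim ATG8 proteins before conjugation and release them afterwards. Atg4d was lower in cKO, with 4625, 4327 and 4877 normalized counts in WT and 3794, 3719 and 3716 in cKO. No sample overlapped (log2 fold change −0.30, SE 0.0433, limma adjusted p = 4.01e-06). Atg4d shares 792 bases of exon with Kri1 on the opposite strand (2888 and 3129 mean normalized counts in WT and cKO), and since no source used here states whether counting used strand, reads in that stretch cannot be told apart. Atg4b, the main protease of the family, had 4219 ± 109 in WT and 4421 ± 127 in cKO (0.07, adjusted p = 0.202) and was called higher with equal totals (0.12, adjusted p = 0.0217). Atg4c was low in every sample, at 100 ± 20.7 and 80.3 ± 13.6, and its difference of −0.30 had an interval from −0.77 to 0.16.

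The 4 ATG8 members moved in both directions. Map1lc3b, which encodes LC3B, the usual marker of autophagosomes, had 18001, 17685 and 18470 normalized counts in WT and 20636, 20916 and 20510 in cKO, a gap larger than the spread within either genotype (log2 fold change 0.20, SE 0.0305, limma adjusted p = 1.01e-05). Gabarap, whose product acts later in autophagosome maturation and also scaffolds the ULK complex, had 13989, 13884 and 13910 in WT and 11296, 12055 and 11089 in cKO. All cKO samples were lower (−0.28, SE 0.0341, adjusted p = 2.72e-07). Gabarapl2, which encodes GATE-16, was also lower, with 4823, 4886 and 4694 in WT and 4136, 4315 and 4175 in cKO (−0.19, SE 0.0389, adjusted p = 0.000319). Gabarapl1 had 4403 ± 228 and 4293 ± 52.2 and was not called (95% interval −0.12 to 0.05, adjusted p = 0.554). The rise of Map1lc3b and the falls of Gabarap and Gabarapl2 kept their calls in all 13 alternative analyses.

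Of the cargo receptors, Sqstm1 and Bnip3l were lower. Sqstm1 (chromosome 11, 50199366 to 50210827, minus strand) encodes p62, which carries ubiquitin-tagged cargo and is itself degraded by autophagy. It had 226165, 224804 and 218631 normalized counts in WT and 173045, 176809 and 168085 in cKO, well apart. The mean dropped by 22.7% (log2 fold change −0.37, SE 0.0305, limma adjusted p = 2.7e-10). Bnip3l, which encodes the mitophagy receptor NIX, had 9402, 9921 and 9621 in WT and 8853, 8802 and 8875 in cKO (−0.13, adjusted p = 0.00419), a call lost with equal totals (−0.08, adjusted p = 0.0709). Nbr1, a receptor that works with p62, was at 6575 ± 44.5 in WT and 6628 ± 45.7 in cKO, with an interval of −0.06 to 0.08. Optn, which encodes the mitophagy receptor optineurin, was at 490 ± 17.6 and 472 ± 50.7 (interval −0.26 to 0.14). Sqstm1 overlaps Mrnip on the opposite strand by 583 bases, but Mrnip had only 110 and 148 mean normalized counts.

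Tfeb (chromosome 17, 47737030 to 47792419, plus strand), the transcription factor that activates lysosome and autophagy genes, was higher in cKO. It had 4504, 4568 and 4583 normalized counts in WT and 5802, 5531 and 5649 in cKO. The genotypes were separated by far more than their spread, and the mean was 24.3% higher (log2 fold change 0.31, SE 0.0375, limma adjusted p = 1.95e-07).

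**Figure D3:**
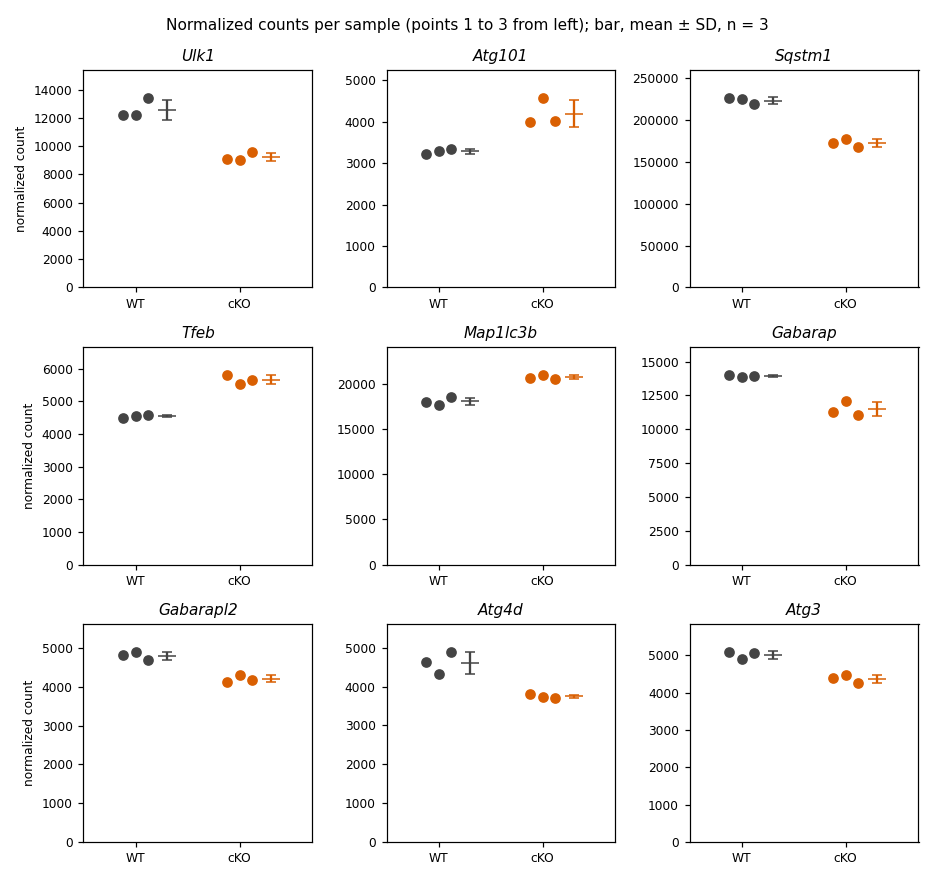
Normalized counts (vertical axes, from 0) of 9 autophagy genes in the 3 WT and 3 cKO samples, with the mean and SD beside the points. In each panel the genotypes do not overlap, with Atg101, Tfeb and Map1lc3b higher in cKO and Ulk1, Sqstm1, Gabarap, Gabarapl2, Atg4d and Atg3 lower.

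Of the 18 called members, 10 kept the call in all 13 alternative analyses, namely Atg101, Map1lc3b and Tfeb on the higher side and Ulk1, Uvrag, Atg3, Atg4d, Gabarap, Gabarapl2 and Sqstm1 on the lower side. None of the 18 changed sign. Other members share near-identical sequence (at least 97% identity over at least 150 bases) with another gene, where reads may not be told apart. How such reads were counted is not given in the sources used here. Among the genes named next the identity was 99.57% for Bnip3l-ps. It was 100% for the others, which lie on the strand opposite to the member. Becn1 shares 1299 bases with Cntd1 (44.1 and 54.2 mean normalized counts in WT and cKO), Bnip3l 663 bases with Bnip3l-ps (59.1 and 47.6), Atg2b 383 bases with Gskip (816 and 892), Rb1cc1 313 bases with 4732440D04Rik (189 and 212) and Gabarapl1 379 bases with 1700101I11Rik (17.6 and 28.2). Atg9a, Atg14 and Gabarapl2 share sequence with genes that were not listed.

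To compare genes with each other, levels were divided by exon length and scaled so that the 14073 genes with a length sum to 1000000 in each sample. The length counted every annotated exon of a gene (7517 bases for Map1lc3b, 1844 for Gabarap). A gene with annotated exons that these cells do not use is therefore placed too low, and which isoforms were expressed was not tested. On this per-length scale the members spanned from Wipi1 at 1.12 ± 0.216 to Sqstm1 at 3176 ± 44.4 in WT (SD, n = 3), with a median of 29.1 against 11.2 for all genes. Sqstm1 stood at rank 40 of all genes in WT and remained the most abundant member in cKO at 2566 ± 17.4. Next in WT came Gabarap at 361 ± 4.87, which was 311 ± 8.49 in cKO. Bnip3l at 119 ± 2.43 and Map1lc3b at 115 ± 3.78 followed in WT and did not differ beyond their spread, while in cKO Map1lc3b at 137 ± 1.28 was above Bnip3l at 114 ± 2.6. Gabarapl1 at 104 ± 5.03, Gabarapl2 at 98.6 ± 1.06, Atg101 at 98.3 ± 2.54 and Ulk1 at 92.7 ± 6.05 were neighbours in WT. In cKO they were further apart, with Atg101 at 131 ± 8.25, Gabarapl1 at 106 ± 1.31, Gabarapl2 at 90.3 ± 1.42 and Ulk1 at 71.2 ± 3.54. At the low end, Optn, Atg10 and Atg2b lay between 6.24 and 9.16, and Atg4c was at 1.43 ± 0.299.

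**Figure D4:**
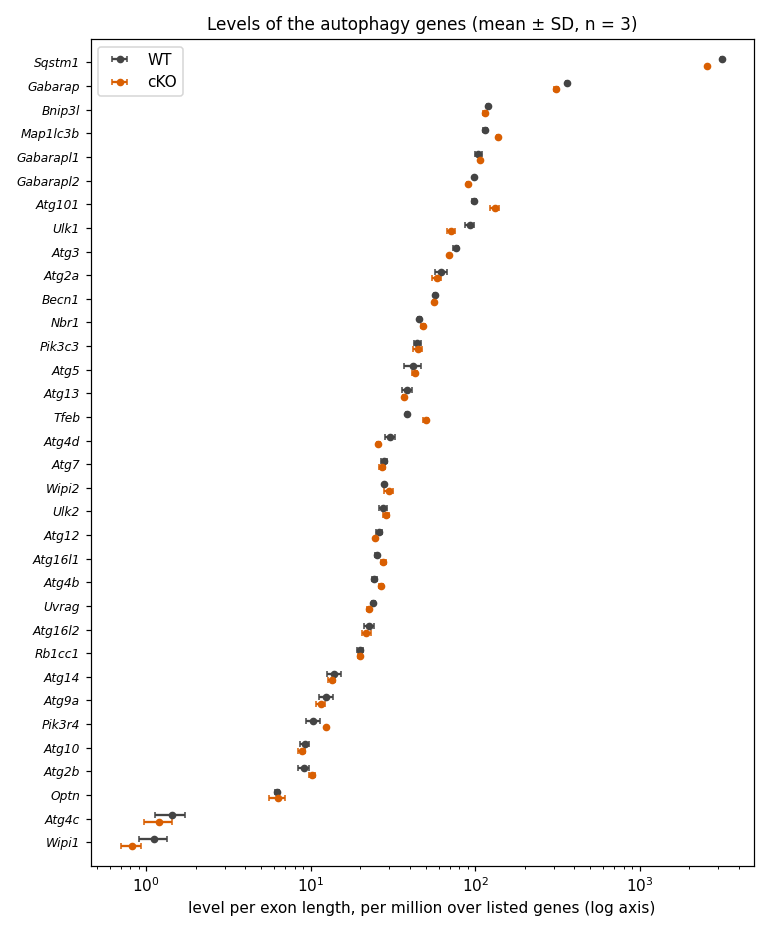
Level of each autophagy gene per exon length (log axis) in WT and cKO, as mean ± SD over 3 samples and ordered by WT. The order spans from Wipi1 at 1.12 to Sqstm1 at 3176 in WT, and the distance between genotypes is small beside the distance between genes.

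Other genes of the pathway were taken from lists by function. Of 114 such genes 110 were listed (Becn2, Stbd1, Rilp and Prkaa2 were not), and 55 were called, 17 higher and 38 lower, with a median log2 fold change of −0.03 beside 0.0014 for all genes. The shares of all genes to set beside these counts and those of each list are the 17.8% higher and 18.8% lower given above, or 21.6% and 23.2% from 1 CPM upward. With equal totals the split was 25 higher and 26 lower, beside 24.1% and 13.9% of all genes. In each list the largest rise and fall are given among called genes without overlap that had a mean of at least 1 CPM.

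The machinery list (17 genes) had 2 higher and 5 lower. Zfyve1, which encodes DFCP1 and marks the membrane sites where autophagosomes form, had 2136, 2312 and 2303 normalized counts in WT and 2634, 2911 and 2565 in cKO (log2 fold change 0.26, SE 0.0519, limma adjusted p = 0.000212). Trp53inp2, which encodes a nuclear cofactor that binds ATG8 proteins, had 12080, 11975 and 12281 in WT and 9007, 8768 and 9529 in cKO (−0.41, SE 0.0349, adjusted p = 4.24e-10). For both genes the genotypes were fully apart. The list of other receptors (18 genes) had none higher and 10 lower, with a median of −0.13, and 2 higher and 5 lower with equal totals. Its largest fall above that level was Pink1, the kinase that labels damaged mitochondria for mitophagy, with 6611, 6832 and 6336 in WT and 5288, 5738 and 5290 in cKO (−0.28, SE 0.0403, adjusted p = 4.06e-06). Under 1 CPM, Park2, the ubiquitin ligase that acts with PINK1, had 42.7, 54.7 and 52.7 in WT and 34.6, 30.9 and 18.3 in cKO (−0.86, SE 0.335, adjusted p = 0.0457). Its call was lost with equal totals (−0.81, adjusted p = 0.0587) and without WT replicate 1 (0.0547), WT replicate 2 (0.124), WT replicate 3 (0.114), cKO replicate 2 (0.0524) or cKO replicate 3 (0.211).

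The fusion list (13 genes) had 2 higher and 6 lower. Snap29, a SNARE that joins autophagosome and lysosome, fell from 1649 ± 50.9 to 1431 ± 93 (log2 fold change −0.21, limma adjusted p = 0.00658), a call lost without cKO replicate 3 (−0.15, adjusted p = 0.0621). Vps33a, part of the tethering complex HOPS, had 2467 ± 135 and 2682 ± 41 (0.12, adjusted p = 0.0477). Its call held without WT replicate 1 and was lost without WT replicate 2 (adjusted p = 0.0677), WT replicate 3 (0.253), cKO replicate 1 (0.0742), cKO replicate 2 (0.0947) or cKO replicate 3 (0.125).

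The lysosome list (28 genes) had 7 higher and 5 lower. Gusb, the hydrolase beta-glucuronidase, had 1800, 1840 and 1914 normalized counts in WT and 2473, 2331 and 2352 in cKO (log2 fold change 0.37, SE 0.0496, limma adjusted p = 1.48e-06). Atp6v0d1, a subunit of the proton pump that acidifies lysosomes, had 7895, 7776 and 7348 in WT and 6456, 6364 and 6170 in cKO (−0.28, SE 0.037, adjusted p = 1.17e-06). Named after their values were seen, the other genes called higher included the hydrolases Ctsd, Ctsz, Ctss, Gla and Neu1, and the other genes called lower were the pump subunits Atp6v1a, Atp6v1h and Atp6v1b2 and the cholesterol carrier Npc2. The call on Ctsd was lost without WT replicate 1 (adjusted p = 0.0624), WT replicate 3 (0.116), cKO replicate 1 (0.0583) or cKO replicate 2 (0.18). That on Atp6v1a was lost with equal totals (−0.07, adjusted p = 0.172) and without WT replicate 1 (0.109), WT replicate 2 (0.0555), cKO replicate 1 (0.126) or cKO replicate 3 (0.0906).

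Among the mTORC1 and AMPK regulators (26 genes), 3 were higher and 9 lower, and with equal totals 7 were higher and 6 lower. Rraga, a Rag GTPase that brings mTORC1 to the lysosome, had 1996, 2140 and 2052 normalized counts in WT and 2719, 2664 and 2493 in cKO (log2 fold change 0.35, SE 0.0494, limma adjusted p = 3.06e-06). Prkab2, a regulatory subunit of the energy sensor AMPK, had 5496, 5261 and 5651 in WT and 3809, 3589 and 3966 in cKO (−0.53, SE 0.0426, adjusted p = 1.64e-10). The transcription factor list (8 genes) had 3 higher and 3 lower. Foxo1, which activates autophagy genes, had 5146 ± 210 in WT and 6086 ± 54.3 in cKO (0.24, adjusted p = 1.27e-05). Tfe3, the close relative of Tfeb, moved opposite to it, with 3592, 3571 and 3498 in WT and 2761, 2758 and 2728 in cKO (−0.37, SE 0.0419, adjusted p = 8.28e-08).

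**Figure D5:**
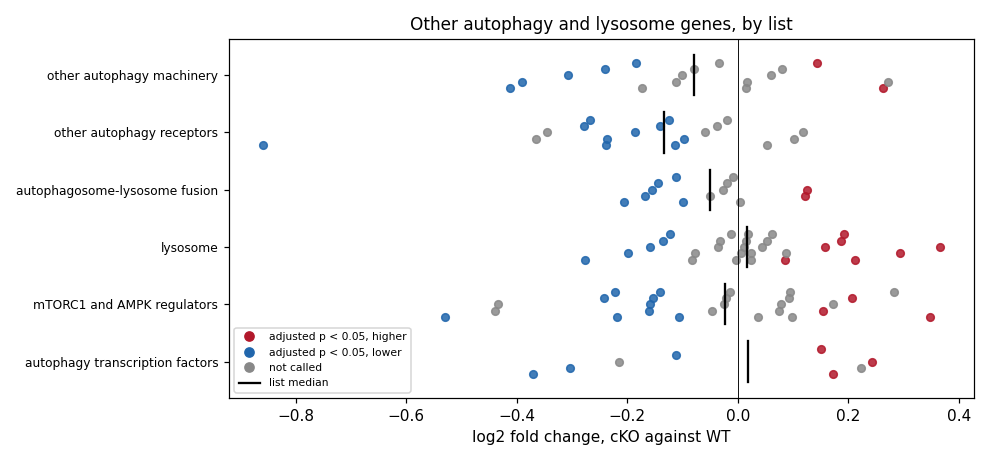
Log2 fold change (horizontal axis) of 110 further autophagy, lysosome and nutrient-sensing genes in 6 lists, 1 point per gene, coloured by the limma call, with a bar at each list's median. The receptor list has 10 blue points and no red one, while the lysosome list has 7 red and 5 blue points.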

How the data were processed

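Poly(A) RNA of splenic NK cells (3 WT and 3 cKO samples) was sequenced. Paired-end reads were mapped by the authors to GRCm38 (HISAT2, 2.0.5 per the labels). Per the labels, the authors assigned reads to genes with featureCounts 1.5.0-p3 and normalized the counts with DESeq2 1.16.1. The methods of the study name other releases of HISAT2 and, for the authors' comparison, of DESeq2. The annotation release and the use of strand are not given in the sources used here. The values deposited by the authors for each sample are a signal, the counts over that sample's size factor, and a column of their mean stands beside them. The deposited log2 fold changes with standard errors, the Wald statistic (a score), and the p-value and adjusted p-value are the authors' own comparison and were not used. All values were whole multiples of 1 step per sample (tolerance 0.01), which gave the reads on listed genes, 55965515 to 71464042 per sample.

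Values were taken as log2(value + 1), and fold changes are on that scale, which understates changes of low genes. A filter of at least 1 in at least 3 samples removed 0 genes. Limma 3.58.1 in R 4.3.3 was fitted to all 14490 genes with a trend in the prior variance. Limma's tests were two-sided, and each adjusted p carries a Benjamini-Hochberg correction over all genes, with a gene called at an adjusted p under 0.05. The code was tested on simulated data. Positions and exon lengths came from the GENCODE M21 annotation of GRCm38, which 97.1% of the gene names matched, and promoters from RefSeq. The members and gene lists were chosen with earlier results of these data known. Values of every sample were given for members with an adjusted p under 0.05, no overlap between genotypes and a log2 fold change of at least 0.3 in size, and for others to show their spread. In each pathway list the largest rise and fall among called genes without overlap and with a mean of at least 1 CPM were named. Same-numbered WT and cKO samples were not paired by the labels, and replicates of a genotype differed by more than counting noise (chi-square per degree of freedom 5.5 to 8). Other assays of the study were not analysed here. Some genes of the lists are counted but not reported by name here.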

Additional observations from a re-analysis of the deposited data

How the results depend on the processing

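Each member was refitted under 13 alternatives, namely log2(value + 0.1), no filter, at least 1 CPM (counts per 1000000) in 3 samples, equal totals, limma-voom, a replicate block, leaving out each of the 6 samples, and a correction for GC content and length (chosen after seeing the data). Of the 442 values, 394 kept their direction and side of the threshold, 33 lost the call, 6 gained it and 9, all of uncalled members, changed sign. Since the filter removed 0 genes, the fit without it was the main fit itself, and its values among the 394 could not change. With equal totals 7 members were higher and 7 lower. Leaving out 1 sample gave 9 to 11 lower members and 13 to 15 called. Sign changes were those of Ulk2 (−0.00077 with the GC and length correction, and −0.041 to 0.036 over the fits without 1 sample), Atg5 (0.032 with equal totals, and −0.097 to 0.082 without 1 sample), Gabarapl1 (0.014 with equal totals) and Optn (−0.11 to 0.033 without 1 sample). The cause of these sign changes was not tested. Calls of Becn1 were also lost with the GC and length correction (adjusted p = 0.0668). No member passed the fold rule under any alternative.

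The replicate numbers are not shown to pair the samples, since the deviations of same-numbered samples correlated at −0.024, 0.12 and 0.045 and not every sample correlated best with its own number. With the replicate block 19 members were called, 4 higher and 15 lower, Atg7 being added (adjusted p = 0.0435). Tests on recovered counts with edgeR and DESeq2 and TMM scaling were not run. With 3 samples a genotype and about 100 normalized counts, as for Wipi1 and Atg4c, differences of the size seen in the other members could not be resolved.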

Other observations

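Ratios between members of the same sample do not depend on the scaling of the samples, and the following were chosen after the values were seen. Map1lc3b relative to Gabarap was 1.30 ± 0.0282 in WT and 1.80 ± 0.0606 in cKO (SD, n = 3, read counts), and relative to Gabarapl2 it was 3.76 ± 0.16 and 4.92 ± 0.0708. Per exon length, Map1lc3b made up 16.9% ± 0.38 of the transcripts of the 4 ATG8 members in WT and 21.3% ± 0.387 in cKO, Gabarap 53.2% ± 0.506 and 48.2% ± 0.77, Gabarapl1 15.4% ± 0.713 and 16.5% ± 0.277, and Gabarapl2 14.5% ± 0.314 and 14.01% ± 0.15. The size of these shares rests on the length of all annotated exons, not on the isoforms expressed. The shares also leave out Map1lc3a, an LC3 gene of the machinery list. Per exon length Map1lc3a was at 158 ± 5.39 in WT and 154 ± 2.48 in cKO, above Map1lc3b in both. It was not called (log2 fold change −0.10, limma adjusted p = 0.0646), with every cKO sample under every WT sample. Atg101 relative to Ulk1 was 0.262 ± 0.0102 and 0.454 ± 0.0453, Ulk2 relative to Ulk1 0.273 ± 0.00648 and 0.373 ± 0.0295, Sqstm1 relative to Nbr1 33.9 ± 0.801 and 26.1 ± 0.777, and Tfeb relative to Tfe3 1.28 ± 0.0281 and 2.06 ± 0.0489. Sqstm1 alone took 0.336% ± 0.00452 of all normalized counts in WT and 0.269% ± 0.00416 in cKO. Since the pairs were chosen from genes seen to differ, the gaps between genotypes follow from the choice and no test is given. Several pairs share genes and are not independent of each other.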
